A study of Mus musculus with 16 samples.

Results

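The mitochondrial ribosome has its own set of proteins, and their genes are named Mrpl for the large subunit and Mrps for the small one. All genes of the count table whose symbol is Mrpl or Mrps followed by a digit were taken, which gave 77 of 11710 genes, 48 of them Mrpl and 29 Mrps. Of these members 76 are annotated as protein-coding and 1, Mrpl48-ps, as a processed pseudogene, and they lie on 17 chromosomes. The RNA came from rotator cuff muscle of mice in 4 groups of 4 samples. The mice were of 2 inbred strains, C57BL/6J (BL6 below), the usual reference strain, and MRL/MpJ (MRL below), studied for its wound healing. In the operated groups of each strain the tendon was removed and the muscle denervated, and in the unoperated control groups it was not. The sample labels name the supraspinatus and the series text the infraspinatus. Age, sex, the time from surgery to collection and whether samples are separate animals are not given in the sources used here, so the p-values measure the spread between samples, which may be technical.

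Mammalian mitochondria keep a small genome that encodes a few subunits of the respiratory chain and of ATP synthase, and the mitochondrial ribosome makes all of these proteins. Its ribosomal RNAs are transcribed inside the organelle, while every one of its proteins is encoded in the nucleus, made in the cytosol and imported. Some of these proteins descend from bacterial ribosomal proteins, and others were added during the evolution of mitochondria. Skeletal muscle is rich in mitochondria, and loss of tendon load or of the nerve is a common way to induce its atrophy.

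Levels below are CPM, a count divided by the library total as scaled by trimmed mean of M values (TMM) and expressed per 1000000 counts. Total counts ran from 24323862 to 43552964 per sample. Mitochondrially encoded genes took 12.2 to 14.2% of counts in unoperated and 17.4 to 23.8% in operated BL6 muscle, and 11.0 to 11.6% and 11.8 to 24.9% in MRL. All 8 muscle fibre markers examined, such as Acta1 and Ckm, were measured, and their summed level ran from 51040 to 162500 CPM over the samples. Replicate 4 of each operated group stood apart. In operated BL6 it had the lowest muscle fibre sum (51040 CPM, others 76990 to 143100) and the highest sums of 7 fibroblast markers (7721 CPM, others 1130 to 2064) and 8 macrophage markers (317 CPM, others 49.4 to 89.3). In operated MRL it had the lowest mitochondrial share (11.8%, others 20.1 to 24.9%). There the sum of 5 endothelial markers was 292 CPM (others 588 to 726). Both replicates 4 had raised sums of 5 brown adipocyte markers, 131 CPM in operated BL6 (others 21.6 to 33.7) and 157 in operated MRL (others 17.6 to 36.4). Ucp1, the defining gene of brown fat, measured 41.1 and 83.2 CPM in them and 0 to 4.12 in the other operated samples. Counts, sums and medians of members after surgery are given with and without these libraries. Changes of single calls without them are given for part of the members only.

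All 77 members passed the filter on low counts. Between genes, levels were compared as CPM per 1000 bases (kb) of the annotated principal transcript. On that scale Mrpl42, a large subunit protein without a bacterial counterpart, was highest at 366 CPM per kb, followed by Mrpl33 at 183 and Mrps21 at 182. The lowest were Mrpl48-ps at 3.06, Mrpl19 at 4.81 and Mrps25 at 5.84. The order depends on the length used: divided by the length of all annotated exons, Mrps21 ranked 1, Mrpl42 ranked 8 and Mrpl33 ranked 51. Mrpl42 averaged 231 ± 6.36 CPM (SD, n = 4) in unoperated and 239 ± 69.3 in operated BL6 muscle, and 256 ± 10.6 and 249.5 ± 44.9 in MRL, and was called in no comparison. Samples of a group scattered more after surgery: the SD of a member was in the median 6.11% of its mean in unoperated and 17.7% in operated BL6 muscle, and 8.09% and 15.6% in MRL. Over operated replicates 1 to 3 alone it was 9.17% in BL6 and 10.4% in MRL.

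Surgery in BL6 raised 36 members and lowered 9, and 32 did not pass the test (edgeR quasi-likelihood test, Benjamini-Hochberg adjusted p under 0.05 over all genes). Over all genes tested 35.1% were called higher and 32.8% lower, 67.9% in total, while 46.8% of members were called higher and 11.7% lower, 58.4% in total. The median log2 fold change of members was 0.29 and that of all genes 0.04. Members ranged from -0.79 for Mrps18b to 1.27 for Mrpl33, and 2 of them, Mrpl33 and Mrps6, passed a log2 change of 1 in size. With library totals in place of TMM 44 members were higher and 9 lower, where 63.0% of all genes were called in total. Without operated BL6 replicate 4, 44 were called higher and 7 lower, against 31.8% and 31.7% of all genes (63.5% in total). Without replicate 4 of both operated groups the counts were 46 and 8, against 33.1% and 33.2% (66.3% in total). The member median was 0.38 without operated BL6 replicate 4 and 0.20 without operated BL6 replicate 2. As these are bulk samples, fewer cells of a type and less RNA per cell cannot be told apart.

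Mrpl33, the counterpart of a bacterial large subunit protein that touches ribosomal RNA, rose most (ENSMUSG00000106918, chr5:31596935-31664384, plus strand of GRCm38). It measured 54.9, 56.2, 47.5 and 49.8 CPM in unoperated BL6 and 122, 138, 139 and 102 in operated BL6. Every operated sample lay above every unoperated one, with replicate 4 the lowest of the operated. The change was 2.40-fold (log2 1.27, SE 0.16, edgeR adjusted p = 2.56e-05). In MRL it measured 75.1, 59.1, 57.2 and 61.7 CPM unoperated and 131, 109, 123 and 73.2 operated. Operated replicate 4 lay within the unoperated range there, and the change was 1.73-fold (log2 0.79, SE 0.16, edgeR adjusted p = 0.00253).

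Mrps6, a protein on the platform of the small subunit, measured 15.3, 14.0, 13.8 and 13.6 CPM in unoperated BL6 and 27.1, 29.3, 28.2 and 31.4 in operated BL6 (chr16:92058270-92112227). The groups did not overlap, and operated replicate 4 was the highest sample, unlike for Mrpl33 (log2 1.04, SE 0.13, edgeR adjusted p = 2.52e-05). MRL gave 18.3, 16.3, 15.6 and 17.5 CPM unoperated and 30.04, 30.5, 25.2 and 18.1 operated (log2 0.61, SE 0.13, edgeR adjusted p = 0.00309). Exons of Mrps6 share 159 bases with Slc5a3 on the same strand, so reads there could be counted for either gene. A further gene on that strand, Gm49711, shares 305 bases, 19.9% of the exons of Mrps6.

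Mrpl52, found in the large subunit of mitochondria but not of bacteria, measured 25.4, 31.3, 28.8 and 23.8 CPM in unoperated and 45.3, 58.6, 58.5 and 48.8 in operated BL6 (log2 0.95, SE 0.19, edgeR adjusted p = 4.41e-04). In MRL it measured 37.2, 28.2, 23.1 and 28.4 and 50.3, 48.1, 55.3 and 28.5 CPM (log2 0.64, SE 0.18, edgeR adjusted p = 0.0125). The BL6 groups were apart, whereas operated MRL replicate 4 sat among the unoperated samples. Mrps34, a small subunit protein specific to mitochondria, went from 47.3 ± 2.89 CPM (SD, n = 4) to 87.8 ± 11.5 in BL6 (log2 0.89, SE 0.15, edgeR adjusted p = 1.56e-04) and from 45.3 ± 5.84 to 70.5 ± 15.0 in MRL (log2 0.64, SE 0.15, edgeR adjusted p = 0.00487). Its exons overlap those of Mapk8ip3 on the opposite strand over 63.4% of their length, and Mapk8ip3 itself was called higher in both strains (log2 0.82 and 0.48). Whether the authors' counting used strand is not given in the sources used here, so the share of each gene is uncertain. On the same strand Nme3 shares 763 bases with Mrps34, 37.0% of its exons, where reads could go to either gene whatever the use of strand.

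Mrpl54 and Mrpl14 completed the 6 largest rises. Mrpl54, another addition of mitochondria to the large subunit, rose by log2 0.83 in BL6 (SE 0.15, edgeR adjusted p = 2.55e-04) and 0.55 in MRL (SE 0.15, edgeR adjusted p = 0.00954). Mrpl14, which sits on the face of the large subunit that meets the small one, rose by log2 0.82 (SE 0.16, edgeR adjusted p = 4.12e-04) and 0.59 (SE 0.16, edgeR adjusted p = 0.00903). In operated MRL the first 3 replicates of Mrpl54 measured 116 to 123 CPM and replicate 4 measured 73.6, within the unoperated range of 62.2 to 84.4. Of the other 30 members called higher in BL6, 15 are described with their roles below, and the remaining 15 had log2 changes from 0.27 (Mrps9) to 0.73 (Mrps21). These were Mrpl13, Mrpl30, Mrpl34, Mrpl55, Mrpl57, Mrps9, Mrps15, Mrps16, Mrps17, Mrps21, Mrps25, Mrps26, Mrps30, Mrps33 and Mrps35. Exons of Mrps25 overlap those of Nr2c2 on the opposite strand over 69.8% of their length, and Nr2c2 itself fell by 1.02 on the log2 scale. The 32 uncalled members ran from -0.35 (Mrps31) to 0.32 (Mrps14).

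**Figure D1:**
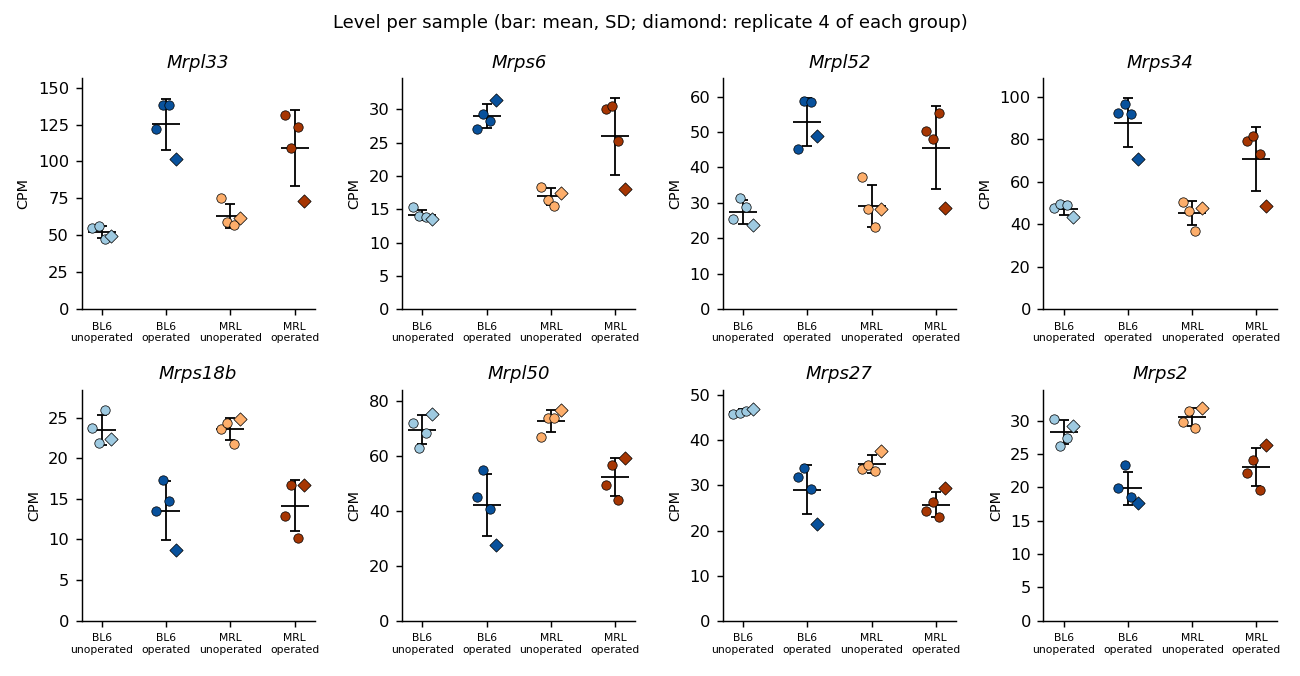
TMM-scaled CPM of 8 members in each of the 16 samples, by group; horizontal bars are means, error bars SDs over 4 samples, and diamonds are replicate 4. The top row holds members that rose after surgery in both strains and the bottom row members that fell in both; for Mrpl33, Mrpl52, Mrps6 and Mrps34 operated MRL replicate 4 lies near the unoperated samples.

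The 9 members lowered in BL6 were Mrps18b, Mrpl50, Mrps27, Mrpl19, Mrpl9, Mrps2, Mrps22, Mrps5 and Mrpl3. Mrps18b, a small subunit protein that arose by duplication of the Mrps18 gene, measured 23.7, 21.9, 26.0 and 22.4 CPM in unoperated and 13.6, 17.4, 14.7 and 8.67 in operated BL6 (chr17:35910379-35916389, log2 -0.79, SE 0.18, edgeR adjusted p = 0.00137). In MRL it measured 23.6, 24.3, 21.7 and 24.8 CPM unoperated and 12.95, 16.7, 10.2 and 16.7 operated (log2 -0.74, SE 0.18, edgeR adjusted p = 0.00571). The groups were apart in both strains, and the log2 change was about the same in each. A processed pseudogene, Gm13552, is 99.8% identical to 417 bases of its transcript, and an antisense gene, Gm16279, overlaps 30.5% of its exons, so its counts are uncertain to that extent.

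Mrpl50, a mitochondria-specific protein of the large subunit, measured 72.0, 62.9, 68.5 and 75.5 CPM in unoperated and 45.0, 55.2, 40.7 and 27.8 in operated BL6 (log2 -0.73, SE 0.16, edgeR adjusted p = 0.00104). In MRL the values were 67.0, 73.9, 74.0 and 76.7 and 49.4, 56.9, 44.1 and 59.4 CPM (log2 -0.47, SE 0.16, edgeR adjusted p = 0.0249). The groups did not overlap in either strain. The call in MRL was lost without unoperated replicate 2, 3 or 4 or operated replicate 1 or 3, where the edgeR adjusted p was 0.0507 to 0.0838.

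Mrps27, a pentatricopeptide repeat protein of the small subunit that binds ribosomal RNA, measured 45.8, 46.1, 46.6 and 47.1 CPM in unoperated and 32.0, 33.8, 29.2 and 21.4 in operated BL6 (log2 -0.67, SE 0.12, edgeR adjusted p = 2.15e-04). In MRL the values were 33.8, 34.6, 33.3 and 37.7 and 24.2, 26.4, 22.9 and 29.4 (log2 -0.44, SE 0.12, edgeR adjusted p = 0.00987). Both strains showed separate groups, from a lower start in MRL. Opposite-strand genes overlap 24.2% of the exons of Mrps27 (6430562O15Rik) and 36.0% of those of Mrpl19 (Gcfc2). Mrps2, the counterpart of a bacterial small subunit protein, fell by 0.51 on the log2 scale in BL6 (SE 0.10, edgeR adjusted p = 6.24e-04) and by 0.41 in MRL (SE 0.10, edgeR adjusted p = 0.00723). Mrpl19 fell by 0.62 and Mrpl9 by 0.52 on the log2 scale in BL6 (edgeR adjusted p = 0.00143 and 0.00298), and both are large subunit proteins of bacterial descent. Mrps22, a mitochondria-specific small subunit protein, fell by 0.42 (edgeR adjusted p = 0.0277) and gave -0.26 in MRL (edgeR adjusted p = 0.186). Its BL6 call was lost without operated BL6 replicate 4 and without replicate 4 of both operated groups. The MRL values of Mrpl19 and Mrpl9 were -0.31 and -0.29, which missed the threshold (edgeR adjusted p = 0.0787 and 0.0818).

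The promoters of 3 members with large rises and 3 with large falls are printed so that the sequence before the start site of each can be compared. They are the 250 bases before the RefSeq start on GRCm38.p6, written 5′ to 3′ in the direction of transcription. For Mrpl33 that start lies inside the longer span of the GENCODE gene. Capitals mark matches on either strand to GCATGCGC, the core letters bound by NRF1, or to CCGGAAG, the letters bound by GABPA. Both factors are known activators of nuclear genes for mitochondrial proteins.
Mrpl33 (chr5:31613701-31613950, plus strand): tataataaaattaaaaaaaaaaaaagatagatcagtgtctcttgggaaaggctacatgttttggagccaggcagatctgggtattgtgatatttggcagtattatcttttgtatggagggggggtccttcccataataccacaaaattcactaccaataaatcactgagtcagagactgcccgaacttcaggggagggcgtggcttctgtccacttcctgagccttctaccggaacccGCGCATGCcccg
Mrps6 (chr16:92058086-92058335, plus strand): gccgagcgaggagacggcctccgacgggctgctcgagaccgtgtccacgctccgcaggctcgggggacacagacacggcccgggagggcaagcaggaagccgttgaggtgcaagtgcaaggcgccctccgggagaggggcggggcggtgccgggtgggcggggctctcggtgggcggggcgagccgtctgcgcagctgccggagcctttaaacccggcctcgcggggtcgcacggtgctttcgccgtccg
Mrpl52 (chr14:54426659-54426908, plus strand): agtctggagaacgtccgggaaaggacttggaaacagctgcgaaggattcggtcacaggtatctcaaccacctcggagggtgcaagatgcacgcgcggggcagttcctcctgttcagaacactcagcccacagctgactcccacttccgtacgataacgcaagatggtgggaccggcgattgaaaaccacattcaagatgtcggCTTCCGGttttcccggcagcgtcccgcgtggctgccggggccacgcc
Mrps18b (chr17:35916441-35916690, minus strand): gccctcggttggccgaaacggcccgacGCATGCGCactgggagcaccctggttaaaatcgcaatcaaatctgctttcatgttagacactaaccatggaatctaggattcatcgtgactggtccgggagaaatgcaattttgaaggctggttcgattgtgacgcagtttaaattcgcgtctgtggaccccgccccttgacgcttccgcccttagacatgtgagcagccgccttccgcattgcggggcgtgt
Mrpl50 (chr4:49521084-49521333, minus strand): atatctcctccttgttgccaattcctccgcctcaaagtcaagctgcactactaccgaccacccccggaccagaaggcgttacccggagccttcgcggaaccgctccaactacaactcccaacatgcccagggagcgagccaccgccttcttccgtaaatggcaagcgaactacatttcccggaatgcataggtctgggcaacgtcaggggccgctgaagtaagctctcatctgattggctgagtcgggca
Mrps27 (chr13:99344536-99344785, plus strand): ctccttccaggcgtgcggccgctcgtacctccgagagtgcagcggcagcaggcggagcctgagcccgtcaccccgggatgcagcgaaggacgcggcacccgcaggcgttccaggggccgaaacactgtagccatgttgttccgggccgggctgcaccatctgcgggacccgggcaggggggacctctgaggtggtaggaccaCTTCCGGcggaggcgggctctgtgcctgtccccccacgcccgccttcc

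The printed promoters of Mrpl33 and Mrps18b, which moved in opposite directions, both hold the NRF1 core, at -12 to -5 from the start in Mrpl33 and at -223 to -216 in Mrps18b. Those of Mrpl52, which rose, and Mrps27, which fell, both hold the GABPA letters, at -47 to -41 and -48 to -42. The windows of Mrps6 and Mrpl50 hold neither set of letters. Of the 77 members 67 had a RefSeq promoter entry, and the shares that follow cover the bases from 250 before to 50 after the start on both strands. CCGGAAG stood in 37.3% of members and in 20.1% of 9062 other genes of the table, and GCATGCGC in 11.9% and 5.99%. The motif of YY1, searched as 1 exact string, stood in 7.46% of members and 2.48% of the others, and the TATA box letters TATAAA in 7.46% and 9.11%. By the BL6 call, CCGGAAG stood in 15 of 32 higher, 4 of 8 lower and 6 of 27 uncalled members. The GC content of the promoter was in the median 58.0% in members and 61.0% in the other genes.

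Surgery in MRL raised 9 members and lowered 5, with 63 not called, against 22.3% of all genes called higher and 22.7% lower (45.0% in total, 18.2% of members). The median log2 fold change of members was 0.08 and that of all genes 0.01. The 9 that rose were Mrpl33, Mrpl52, Mrps34, Mrps6, Mrpl14, Mrpl54, Mrpl24, Mrpl20 and Mrpl28, and the 5 that fell were Mrps18b, Mrpl50, Mrps27, Mrps2 and Mrpl3. With library totals in place of TMM 15 members were higher and 5 lower, against 17.4% and 16.1% of all genes (33.5% in total). Without operated MRL replicate 4, 25 members were called higher and 8 lower, against 24.6% and 27.8% of all genes (52.5% in total). Without replicate 4 of both operated groups the counts were 32 and 9, against 28.7% and 30.2% (58.8% in total). The member median was 0.16 without operated MRL replicate 4 and 0.04 without operated MRL replicate 1. Mrpl11, Mrpl17 and Mrpl27 were among the members that gained a call without operated MRL replicate 4 (log2 0.33, 0.27 and 0.45, edgeR adjusted p = 0.0243, 0.0271 and 0.0235). So were Mrpl41, Mrps21 and Mrps24 (log2 0.34, 0.45 and 0.43, edgeR adjusted p = 0.0226, 0.0200 and 0.0133). Mrpl28, a large subunit protein of bacterial descent, rose by log2 0.58 in BL6 and 0.30 in MRL (edgeR adjusted p = 1.87e-04 and 0.0246).

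Of the 45 members called in BL6, 14 (31.1%) were also called in MRL, and these were 100% of the MRL calls, all 14 in the same direction. Of all 77, 66 had the same sign in both strains and 64 had the larger change in BL6. Over the 77 members Pearson's r between the log2 changes of BL6 and MRL was 0.93 and Spearman's rho 0.94, and over all genes 0.85 and 0.89. All points of a strain share its libraries, so these values are a description. The difference between strains itself, the interaction, was called for 0 of the 77 members by edgeR, by DESeq2 and by limma voom, and 4 members had an unadjusted p under 0.05 in edgeR. Of all genes 0.248% were called (0.154% positive and 0.0939% negative). The median interaction was -0.17 for members and -0.01 for all genes. The interaction was negative, a smaller rise or a larger fall in MRL, for 60 of the 77 members. Among all 11709 genes tested it was negative for 5974. Over single libraries left out the member median ran from -0.25 (without operated BL6 replicate 4) to -0.09 (without operated BL6 replicate 2). When replicate 4 of both operated groups was left out, 40 members were called in both strains, all 40 in the same direction. In that fit 61 had the larger change in BL6 and 70 had a negative interaction. With all samples MRL also had the smaller share of calls over all genes, 45.0% against 67.9% for BL6. Counts of shared calls, shared signs and larger changes over all genes are not given here. Whether the member counts depart from the pattern of all genes was not tested.

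**Figure D2:**
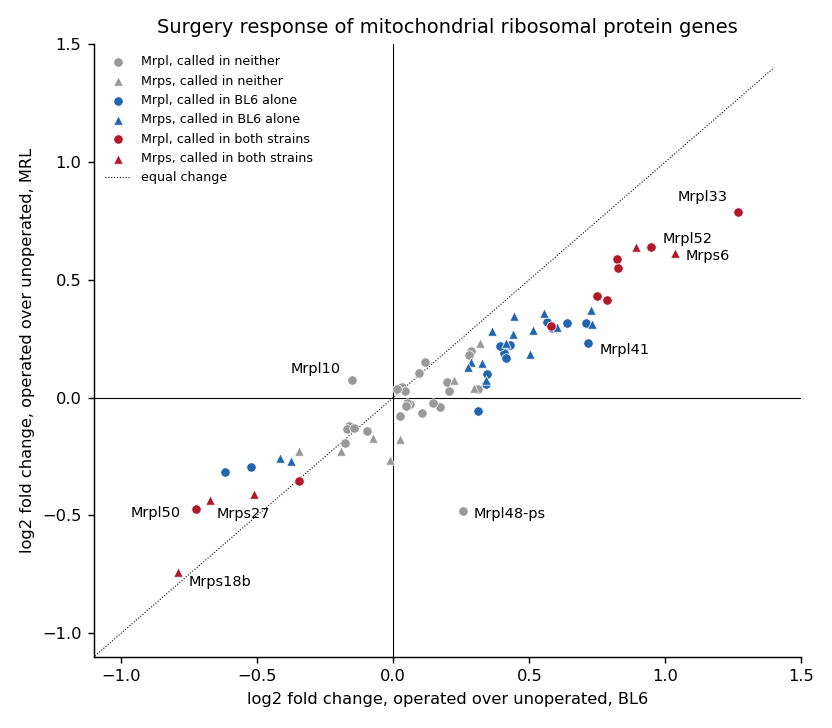
Log2 fold change after surgery in BL6 (horizontal axis) and MRL (vertical axis) for the 77 members; circles are Mrpl and triangles Mrps, red marks 14 members called in both strains, blue 31 called in BL6 and not in MRL, grey the rest, and the dotted line equal change. Most points on the right lie under the dotted line, and Mrps18b lies close to it.

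The 4 members with an unadjusted interaction p under 0.05 were Mrpl41, Mrps6, Mrpl36 and Mrpl10. Mrpl41, a large subunit protein specific to mitochondria, rose in BL6 from 31.3 ± 2.07 to 51.5 ± 6.73 CPM (SD, n = 4, log2 0.72, SE 0.13, edgeR adjusted p = 2.91e-04) and measured 40.7 ± 4.60 and 47.8 ± 8.46 in MRL. Its interaction was -0.49 (SE 0.19, edgeR adjusted p = 0.246). Mrps6 had an interaction of -0.42 and Mrpl36, a small large-subunit protein of bacterial descent, one of -0.37 (edgeR adjusted p = 0.293 and 0.297). That of Mrps6 was -0.24 without replicate 4 of both operated groups. Mrpl10 was the exception in sign, with 0.23 (edgeR adjusted p = 0.307). None of these passed the threshold, and operated MRL replicate 4 was the lowest operated MRL sample for Mrpl41, Mrps6 and Mrpl36.

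**Figure D3:**
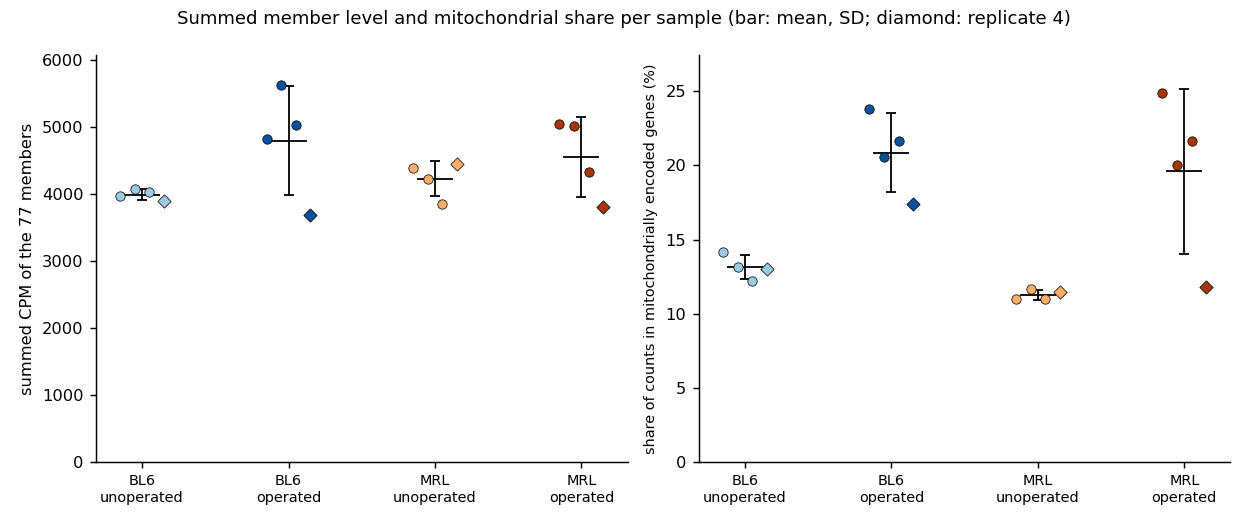
Left, summed TMM-scaled CPM of the 77 members per sample, and right, the percentage of counts in mitochondrially encoded genes, both by group; bars are means and SDs over 4 samples and diamonds are replicate 4. On the TMM scale the members sum to 4818 to 5628 CPM in the first 3 operated BL6 samples and to 3688 in replicate 4, below all 4 unoperated BL6 samples. The right panel uses library totals without TMM factors. On library totals the member sum of operated BL6 replicate 4 would lie above those of the unoperated BL6 samples.

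Summed over the 77 members, the level was 3988 ± 81.0 CPM (SD, n = 4) in unoperated and 4792 ± 812 in operated BL6 muscle, and 4227 ± 266 and 4546 ± 598 in MRL. On the TMM scale replicate 4 was the lowest operated sample in both strains, at 3688 and 3800 CPM, so the operated and unoperated ranges overlapped. In BL6 this rests on the scaling. The TMM factor was 1.272 in operated replicate 4, 0.8302 to 1.038 in the other operated samples and 0.8733 to 0.9884 in unoperated ones. On library totals alone the sum of that replicate would lie above those of the unoperated BL6 samples. Over operated replicates 1 to 3 alone the sum was 5160 ± 419.5 CPM (SD, n = 3) in BL6 and 4795 ± 406 in MRL. By gene name, the Mrpl sum went from 2787 ± 45.4 to 3325 ± 574 CPM in BL6 and the Mrps sum from 1200 ± 36.4 to 1467 ± 238. The median log2 change was 0.23 for 48 Mrpl genes, with 20 called higher and 4 lower, and 0.32 for 29 Mrps genes, with 16 higher and 5 lower. In MRL the medians were 0.06 and 0.15, with 7 higher and 2 lower among Mrpl and 2 higher and 3 lower among Mrps. The shares of all genes were 35.1% higher and 32.8% lower in BL6, and 22.3% and 22.7% in MRL. With both replicates 4 left out, Mrpl gave 27 higher and 4 lower in BL6 (median 0.37) and 19 and 4 in MRL (0.14). Mrps then gave 19 and 4 in BL6 (0.41) and 13 and 5 in MRL (0.20). The shares of all genes were then 33.1% higher and 33.2% lower in BL6, and 28.7% and 30.2% in MRL.

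By structure, Mrps18a and Mrps30 belong to the large subunit despite their names, and Mrps36 was later assigned to the oxoglutarate dehydrogenase complex of the citric acid cycle. Of 29 large subunit members with a bacterial counterpart 15 rose and 3 fell in BL6, and of 20 without one 7 rose and 1 fell. Of 16 small subunit members with a bacterial counterpart 9 rose and 2 fell, and of 10 without one 5 rose and 3 fell. In MRL the same classes gave 5 higher and 1 lower, 2 and 1, 1 and 1, and 1 and 2. These counts stand against 35.1% of all genes called higher and 32.8% lower in BL6 and 22.3% and 22.7% in MRL. In that order, the classes without both replicates 4 gave 19 higher and 3 lower, 10 and 1, 12 and 2, and 5 and 2 in BL6, and 12 and 3, 9 and 1, 7 and 2, and 4 and 3 in MRL. Mrps18a and Mrps18b were counted in the classes without a bacterial counterpart, although they share their bacterial descent with Mrps18c. Mrps36 had values of -0.19 in BL6 and -0.23 in MRL and was not called in either.

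Within the large subunit, the stalk recruits the translation factors that drive each step of elongation. Its members Mrpl11 and Mrpl12 rose in BL6 by log2 0.43 and 0.35 (edgeR adjusted p = 0.00929 and 0.0446). The call of Mrpl12 was lost without any of BL6 unoperated replicates 2 to 4, operated replicates 1 to 3, MRL unoperated replicate 2 or MRL operated replicates 2 and 3 (edgeR adjusted p 0.0504 to 0.153), and in a fit of only the 2 groups compared (0.0788). Mrpl10, which anchors the stalk, measured 48.6 to 49.8 CPM in unoperated and 41.2 to 46.6 in operated BL6 (log2 -0.15, SE 0.07, edgeR adjusted p = 0.0775). It passed the threshold in DESeq2 (adjusted p = 0.0194) and in edgeR without operated MRL replicate 4 (0.0430) or without mitochondrially encoded genes (0.0417), and over all fits that each left out 1 library its adjusted p was 0.0430 to 0.159. Over all alternative fits (edgeR, DESeq2 and limma voom) the log2 change of Mrpl10 ran from -0.18 to -0.02, with an adjusted p of up to 0.881.

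Around the peptidyl transferase centre, where peptide bonds form, Mrpl3 fell in both strains and Mrpl27 rose in BL6. Mrpl3 measured 75.6, 74.1, 76.4 and 79.9 CPM in unoperated and 66.1, 68.7, 64.0 and 41.6 in operated BL6, with replicate 4 far the lowest (log2 -0.35, SE 0.12, edgeR adjusted p = 0.0205). In MRL it measured 61.6, 61.7, 64.3 and 65.9 and 52.4, 50.3, 45.9 and 49.8 CPM, with separate groups (log2 -0.35, SE 0.12, edgeR adjusted p = 0.0299). Without operated BL6 replicate 4 its BL6 change was -0.21 and still called (edgeR adjusted p = 0.0261). The BL6 call was lost without unoperated replicate 4 (0.0506), and the MRL call without unoperated replicate 2, 3 or 4 or operated replicate 2 or 3 (0.0528 to 0.0860). In a fit of only the 2 groups the BL6 call was lost as well (0.0516). Mrpl27 went from 23.4 ± 2.04 to 34.6 ± 6.49 CPM in BL6 (log2 0.56, SE 0.17, edgeR adjusted p = 0.00767). Mrpl2 and Mrpl16 had values of 0.06 and 0.12 and were not called. Mrpl16 was called without replicate 4 of both operated groups (0.25, edgeR adjusted p = 0.0244).

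At the exit tunnel, through which the new peptide leaves, Mrpl24, Mrpl17 and Mrpl22 rose in BL6 by log2 0.75, 0.41 and 0.41, while the other 5 of 8 measured members were not called. Among those, Mrpl45, which binds the ribosome to the inner membrane, had values of -0.18 in BL6 and -0.19 in MRL. The call of Mrpl22 was lost without operated BL6 replicate 3 (edgeR adjusted p = 0.0518). Mrpl24 also rose in MRL (log2 0.43, SE 0.13, edgeR adjusted p = 0.0171), a call lost without operated replicate 1 or 2 (0.0583 and 0.0511). Its exons share 26.3% of their length with Rrnad1 on the opposite strand, which had values of 0.55 and 0.32. Mrpl20, a bacterial counterpart that binds ribosomal RNA, rose in BL6 (log2 0.79, SE 0.14, edgeR adjusted p = 2.79e-04) and in MRL (log2 0.41, SE 0.14, edgeR adjusted p = 0.0303), the latter call lost without unoperated replicates 2, 3 or 4 or operated replicates 1, 2 or 3 (0.0534 to 0.103). Both MRL calls, of Mrpl24 and Mrpl20, were also lost in a fit of only the 2 groups (edgeR adjusted p = 0.0518 and 0.0741).

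In the central protuberance 1 of 6 members was called in BL6, Mrpl58, a peptidyl-tRNA hydrolase that became part of the ribosome (log2 0.71, SE 0.15, edgeR adjusted p = 6.33e-04). In MRL it gave 0.31 (edgeR adjusted p = 0.0856), and without operated MRL replicate 4 it was called there (0.45, edgeR adjusted p = 0.00362), as with library totals (0.35, 0.0440). Mrpl46 had a value of 0.29 in BL6 and was not called (edgeR adjusted p = 0.101), but was without operated BL6 replicate 4 (0.40, 0.0171) and with library totals (0.39, 0.0104). Its exons overlap those of Mrps11, its neighbour on the opposite strand, by 173 bases. In the small subunit, Mrps12 and Mrps24, on the path of the messenger, rose by log2 0.41 and 0.51 in BL6, and Mrps5, near its entry, fell by 0.38 (edgeR adjusted p = 0.0100, 0.0116 and 0.0295). For Mrps5 operated replicate 4 measured 17.1 CPM against 27.5 to 29.0 in the other 3. Without it the value was -0.23 (edgeR adjusted p = 0.0617), and the call was also lost without unoperated BL6 replicates 2, 3 or 4 (0.0552 to 0.0704) and in a fit of only the 2 groups (0.0511). Mrps7 and Mrps11 had values of 0.22 and -0.08 and were not called, though Mrps7 was without operated BL6 replicate 4 (0.32, edgeR adjusted p = 0.00993) and with library totals (0.33, 0.00218).

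The 3 Mrps18 genes descend from a single bacterial protein and moved in different directions. Mrps18c, which takes the bacterial position in the small subunit, rose from 17.9 ± 0.928 to 29.7 ± 4.42 CPM in BL6 (log2 0.73, SE 0.16, edgeR adjusted p = 0.00112). Mrps18a, in the large subunit, rose from 80.1 ± 3.09 to 109 ± 19.4 CPM (log2 0.44, SE 0.13, edgeR adjusted p = 0.00872). Mrps18b fell in both strains, as described above. In MRL, Mrps18c and Mrps18a had values of 0.37 and 0.27 (edgeR adjusted p = 0.0707 and 0.105). Without operated MRL replicate 4 both passed the threshold there, at 0.52 and 0.36 (edgeR adjusted p = 0.00303 and 0.0211), and Mrps18c also passed without unoperated MRL replicate 1 (0.0430). With library totals and all samples both also passed, at 0.41 and 0.31 (edgeR adjusted p = 0.0479 and 0.0399).

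The log2 changes after surgery were ordered in part by the length of the coding sequence. The 36 members raised in BL6 had a median coding length of 463.5 bases, the 9 lowered one of 876 and the 31 uncalled coding members one of 648. Of 13 members of up to 400 coding bases 10 rose and 0 fell in BL6, with a median log2 change of 0.41. Of 15 members over 900 bases 3 rose and 4 fell, with a median of -0.14. Between these, 16 of 26 members over 400 and up to 600 bases rose and 1 fell. Of 22 over 600 and up to 900 bases 7 rose and 4 fell. Among genes of any length 35.1% were called higher and 32.8% lower in BL6. Across 76 members Spearman's rho of coding length and log2 change was -0.54 in BL6 and -0.47 in MRL, and across 11232 genes with a coding length -0.22 and -0.12. With transcript length in its place rho was -0.40 over members and -0.29 over all genes in BL6, and -0.33 and -0.175 in MRL. Without replicate 4 of both operated groups rho of coding length over members was -0.53 and -0.45. In BL6, 11 of the 13 shortest then rose, and 3 of the 15 longest rose and 3 fell, against 33.1% and 33.2% of all genes. The strain comparisons and the interaction also had a relation to coding length. For strain rho was -0.26 over members and -0.22 over all genes in unoperated muscle, and 0.30 and 0.13 in operated muscle. For the interaction it was 0.56 and 0.29. Without replicate 4 of both operated groups rho over members was -0.26, 0.04 and 0.48 in that order. The genes share the same libraries, so rho is a description.

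**Figure D4:**
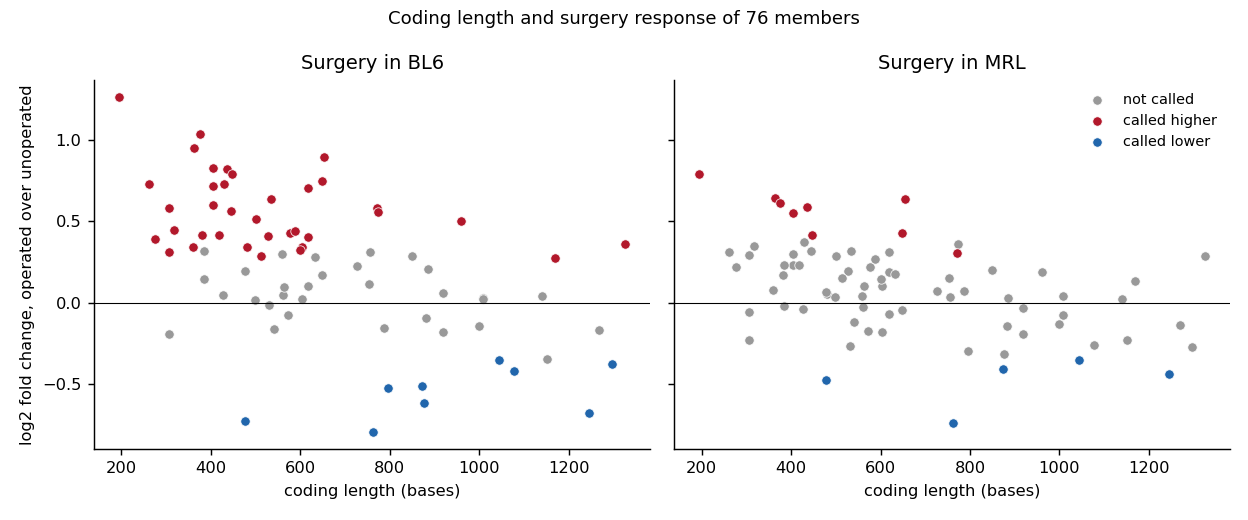
Coding length in bases (horizontal axis) and log2 fold change after surgery (vertical axis) for 76 protein-coding members in BL6 (left) and MRL (right); red points were called higher, blue lower and grey neither. Points above 0 lie mostly at the short end, and both panels share the vertical axis.

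Between unoperated muscles of the strains 2 members were higher in MRL and 3 lower, against 5.02% of all genes called higher and 5.36% lower (10.4% in total). The higher ones were Mrpl48-ps and Mrpl15, the lower ones Mrpl27, Mrpl9 and Mrps27. Between operated muscles, again 2 were higher, Mrpl48-ps and Mrpl10, and 3 lower, Mrpl27, Mrpl55 and Mrps12, against 7.60% and 5.27% of all genes (12.9% in total). These calls share 1 estimate of spread over all 4 groups, although members scattered less in unoperated than in operated groups. A fit of only the 2 groups compared gave 9 higher and 7 lower among unoperated muscles (20.8% of all genes called). Among operated muscles it gave 1 higher and 1 lower (4.9%). The median log2 difference of members was 0.11 unoperated and -0.08 operated. Over single libraries left out the first ran from 0.07 (without unoperated MRL replicate 1) to 0.13 and the second from -0.18 (without operated BL6 replicate 4) to -0.01 (without operated BL6 replicate 2). With library totals in place of TMM, 12 members were higher and 1 lower among unoperated muscles, against 6.33% and 2.67% of all genes (9.0% in total). Among operated ones 5 were higher and 2 lower, against 8.49% and 3.27% (11.8% in total). That scaling moved the median of all genes from 0.01 to 0.15 among unoperated muscles and from 0.04 to 0.18 for surgery in BL6, and the member median minus that of all genes went from 0.10 to 0.10 and from 0.24 to 0.21.

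Mrpl48-ps (chr4:88599175-88599810, minus strand) gave the largest strain difference. It had 11, 6, 6 and 5 counts in unoperated and 6, 8, 10 and 1 in operated BL6, and 150, 166, 112 and 175 in unoperated and 91, 88, 54 and 138 in operated MRL. In CPM that is 0.330, 0.144, 0.159 and 0.135 in unoperated BL6 and 4.59, 4.24, 3.61 and 4.74 in unoperated MRL (log2 4.48, SE 0.44, edgeR adjusted p = 2.58e-06). Among operated samples the difference was log2 3.74 (SE 0.44, edgeR adjusted p = 2.24e-05). The pseudogene is 98.1% identical to the transcript of Mrpl48 on chromosome 7, over 636 bases, and Mrpl48 itself measured 37.8 ± 1.75 CPM (SD, n = 4) in unoperated BL6 and 31.1 ± 2.76 in unoperated MRL (log2 -0.28, SE 0.14, edgeR adjusted p = 0.225). Reads of the pair could be assigned to either copy, and the part of this in the strain difference was not tested.

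Mrpl27 was the member most reduced in MRL. It measured 20.7, 24.1, 25.6 and 23.2 CPM in unoperated BL6 and 15.1, 12.4, 10.4 and 12.8 in unoperated MRL, without overlap (log2 -0.88, SE 0.17, edgeR adjusted p = 0.00240). Operated samples gave 34.4, 42.7, 34.7 and 26.8 and 20.2, 16.7, 15.2 and 11.3 CPM, also without overlap (log2 -1.13, SE 0.17, edgeR adjusted p = 2.83e-04). A processed pseudogene, Gm6304, is 98.9% identical to it over 447 bases. Further processed pseudogenes are Gm12774 (91.7% over 278 bases) and Gm11207 (90.6% over 426 bases). The genome mm10 is the only one named for both strains. The part of sequence differences between the strains in the counts of Mrpl27 and the other members was not tested. Mrpl9 averaged 62.6 CPM in unoperated BL6 and 42.7 in unoperated MRL (log2 -0.55, SE 0.13, edgeR adjusted p = 0.0134). With library totals in place of TMM this call was lost (-0.41, edgeR adjusted p = 0.0920). Mrpl15, of the large subunit, measured 108 to 118 CPM in unoperated BL6 and 152 to 187 in unoperated MRL, with no overlap (log2 0.63, SE 0.18, edgeR adjusted p = 0.0400). Among operated samples its ranges overlapped, 86.0 to 165 and 124 to 211 CPM.

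The unoperated differences of Mrpl15 and Mrps27 were close to the threshold. The count of 5 unoperated strain calls was 3 to 8 when 1 library was left out, with 8 without operated BL6 replicate 4 (13.1% of all genes). The call of Mrpl15 was lost without any of the 4 unoperated BL6 samples, unoperated MRL replicates 1, 2 or 4, or operated BL6 replicates 1 or 3 (edgeR adjusted p 0.0514 to 0.106). That of Mrps27 (log2 -0.41, SE 0.12, edgeR adjusted p = 0.0365) was lost without any of the 4 unoperated BL6 samples or unoperated MRL replicates 1, 2 or 3 (0.0523 to 0.0897). It was also lost with library totals (-0.27, edgeR adjusted p = 0.111). Among operated muscles, Mrpl10 measured 41.2 to 46.6 CPM in BL6 and 53.8 to 62.5 in MRL (log2 0.39, SE 0.07, edgeR adjusted p = 0.00216). Mrpl55, a bacterial counterpart in the large subunit, measured 54.7 to 87.4 and 32.7 to 53.7 CPM (log2 -0.72, SE 0.16, edgeR adjusted p = 0.00649), and Mrps12 40.0 to 52.0 and 27.7 to 35.2 (log2 -0.46, SE 0.13, edgeR adjusted p = 0.0264). The call of Mrps12 was lost without operated BL6 replicate 2 or 3 or operated MRL replicate 4 (0.0576 to 0.0631). In a fit of only the 2 operated groups the calls of Mrpl10, Mrpl55 and Mrps12 were all lost (edgeR adjusted p = 0.0698, 0.0848 and 0.0831), and with library totals that of Mrps12 (0.0726). Without operated BL6 replicate 4, 2 members were higher and 8 lower between operated muscles, against 7.78% and 6.03% of all genes (13.8% in total). Without replicate 4 of both operated groups the counts were 3 and 9, against 7.06% and 6.19% (13.3% in total).

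Other genes of mitochondrial translation did not all move with the members. Of 5 further mitochondrial ribosome proteins that carry other names, Gadd45gip1, Aurkaip1 and Chchd1 rose in BL6 (log2 1.01, 0.87 and 0.64), Ptcd3 fell by 1.30 and Dap3 was not called (0.06). Gadd45gip1 was also lower in MRL than in BL6, at 18.7 to 23.9 against 35.2 to 43.0 CPM unoperated (log2 -0.88, SE 0.13, edgeR adjusted p = 1.86e-04). The ribosomal RNAs of the organelle rose in both strains. The small subunit RNA mt-Rnr1 measured 1878, 1538, 859.6 and 899.8 CPM in unoperated and 5252, 5143, 4603 and 3554 in operated BL6 (log2 1.84, SE 0.32, edgeR adjusted p = 1.65e-04), and in MRL 1201, 1161, 1096 and 1230 and 4858, 4841, 3713 and 1601 (log2 1.68, SE 0.31, edgeR adjusted p = 0.00167). The large subunit RNA mt-Rnr2 changed by log2 1.41 in BL6 and 1.42 in MRL (edgeR adjusted p = 2.50e-04 and 0.00136). How ribosomal RNA was removed, or messenger RNA selected, is not given in the sources used here.

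Among the factors that serve the ribosome most calls were falls. Of 11 translation factors measured, 1 rose and 6 fell in BL6, and 0 rose and 5 fell in MRL. The initiation factor Mtif2 changed by -0.92 in BL6 and -0.32 in MRL, Mtif3 by -0.36 and -0.31, and the elongation factor Tufm had values of 0.29 and 0.27 and was not called. The one that rose in BL6 was Mtfmt, the formyltransferase of the initiator tRNA (0.47). Of 20 genes that charge mitochondrial tRNAs, 1 rose and 12 fell in BL6, and 0 rose and 6 fell in MRL. The one that rose, Lars2, had values of 1.17 in BL6 and -0.65 in MRL, where it was not called. Of 23 assembly genes 2 rose, Mpv17l2 (0.68) and Malsu1 (0.46), and 11 fell in BL6, while 0 rose and 7 fell in MRL. Beside these lists and those below stand 35.1% of all genes called higher and 32.8% lower in BL6. The shares in MRL were 22.3% and 22.7%.

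Of 6 genes for transcription and messenger stability in the organelle, 4 fell and 1 rose in BL6. Tfam, which packages and transcribes the mitochondrial genome, fell by 0.83 on the log2 scale in BL6 and 0.56 in MRL, and Slirp, a small RNA-binding protein, rose by 0.94 and 0.52. Of 7 mitochondrially encoded proteins measured, 3 rose in BL6 and 6 in MRL. With both replicates 4 left out, 6 rose in BL6 and 7 in MRL. Of 9 nuclear regulators, 5 fell and 1 rose in BL6. Gabpa, whose letters were searched above, measured 36.4 to 41.6 CPM in unoperated and 15.8 to 20.8 in operated BL6, a fall (log2 -1.06, SE 0.15, edgeR adjusted p = 3.84e-05) and 29.7 to 42.0 and 22.9 to 37.3 in MRL, also a fall but with overlap (log2 -0.40, SE 0.15, edgeR adjusted p = 0.0356). Its partner Gabpb1 rose in both (0.48 and 0.46), and Nrf1 was not called in either (0.07 and -0.05).

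**Figure D5:**
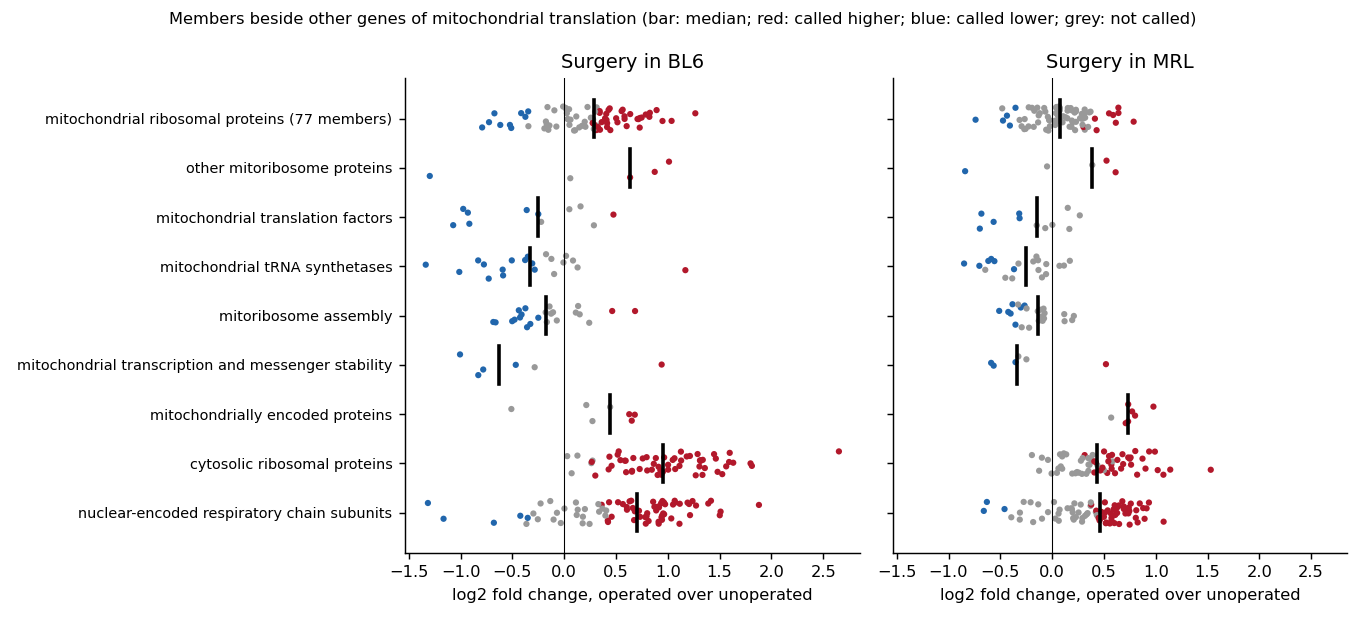
Log2 fold change after surgery in BL6 (left) and MRL (right) for the 77 members and 8 other gene lists, 1 point per gene; red was called higher, blue lower, grey neither, and black bars are medians. The member median lies at 0.29 in BL6 and 0.08 in MRL, between the negative medians of the factor, tRNA and assembly lists and the positive medians of the cytosolic ribosomal and respiratory chain lists.

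For comparison, of 62 cytosolic ribosomal protein genes 57 rose and 0 fell in BL6, with a median log2 change of 0.96, and 32 rose and 0 fell in MRL, with a median of 0.43. Of 80 nuclear-encoded subunits of the respiratory chain and ATP synthase 54 rose and 5 fell in BL6 (median 0.70), and 44 rose and 3 fell in MRL (median 0.46). These lists stand beside the members as counts, and no test of the difference between lists was made. Markers of other cell types moved in the same samples: the summed level of 6 white adipocyte markers was 213 to 285 CPM in unoperated and 1233 to 1711 in operated BL6, and 268 to 376 and 1116 to 1923 in MRL. The sum of 5 endothelial markers averaged 313 CPM in unoperated and 651 in operated BL6, and 243 and 560.0 in MRL, and that of 5 Schwann cell markers 61.0 and 243, and 62.0 and 132. That of 5 brown adipocyte markers averaged 20.5 and 54.3 CPM in BL6 and 16.3 and 58.7 in MRL, with the operated samples other than both replicates 4 at 17.6 to 36.4. The muscle fibre sum was 121700 to 162500 CPM in unoperated and 51040 to 143100 in operated BL6, and 111800 to 125600 and 70970 to 94250 in MRL. The part of cell composition in the member results was not tested.

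The authors' deposited table called 39 members higher and 9 lower after surgery in BL6, against 33.2% and 31.7% of all genes there (64.9% in total), and they included all 45 called here in the same direction. For MRL the authors' deposited table called 9 higher and 9 lower, against 29.2% and 27.1% (56.4% in total), and these included the 14 called here. For the strain comparisons the authors' deposited table called 4 unoperated (9.86% of all genes) and 7 operated (11.9%), of which 4 and 5 were among those called here.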

How the data were processed

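Raw read counts per gene were deposited by the authors for 16 samples. Per the submitters' processing notes FastQC, STAR, edgeR and the genome mm10 were used, and the counter, its use of strand and filters are not given in the sources used here. RNA came from minced muscle, extracted with a column kit and DNase, per the labels' protocols. The authors' deposited table of comparisons holds log2 fold changes, p-values and FDR values, which were used for the last paragraph only.

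Counts were tested with edgeR 4.0.16 (R 4.3.3) over 11709 of 11710 genes that passed filterByExpr with a minimum count of 10, with TMM factors, 1 fit of all 4 groups, the quasi-likelihood test and Benjamini-Hochberg adjustment over all genes (threshold 0.05). This fit was tested on simulated data. Alternatives were DESeq2 1.42.0, limma 3.58.1 voom, library totals, other filters and sample sets, a replicate block and a log2 threshold of 0.5. Leaving out replicate 4 of both operated groups was added after seeing the data. Annotation was GENCODE M21 (GRCm38, 11708 identifiers found), near-identical copies were searched with blastn 2.17.0, and promoters are RefSeq on GRCm38.p6. No protein sequences were used here. Mrpl23 and Mrpl53 were not analysed here.

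The members and gene lists were chosen with earlier results of these data known. Members named were the 6 largest called rises and falls of each 2-group comparison, the 3 smallest interaction p-values, the 3 highest and 3 lowest levels per length, the Mrps18 genes, the pseudogene and the role groups. Of other lists the first 3 measured genes and those against the majority could be named. Mrpl10 under the interaction, Aurkaip1 and Gadd45gip1, genes that overlap members, and members given to complete a count were named after their values were seen.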

Additional observations from a re-analysis of the deposited data

Results flagged for a closer look

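In 7 of 168 sets of 4 samples examined 1 sample lay far from the other 3, past Dixon's 95% critical value, and chance gives about 1 in 20. Mrps5 measured 17.1 CPM in operated BL6 replicate 4, against 27.5 to 29.0 in the others, and 20.8 in operated MRL replicate 3, against 26.98 to 27.85. Mrpl54 measured 73.6 CPM in operated MRL replicate 4, against 116 to 123. In unoperated MRL replicate 3, Mrps11 measured 21.03 CPM against 26.4 to 26.7 and Mrpl22 14.7 against 16.7 to 16.8. In unoperated BL6, Mrpl10 measured 49.8 CPM in replicate 2, against 48.6 to 48.7, and Mrpl48-ps 0.330 in replicate 1, against 0.135 to 0.159.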

How the results depend on the processing

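The counts of called members stayed within 1.5 times of those reported except as follows. Against a log2 threshold of 0.5, 9 members passed for surgery in BL6, 0 in MRL, 1 for strain in unoperated and 2 in operated muscle (34.9, 7.18, 3.1 and 2.97% of all genes). Without replicate 4 of both operated groups 41 were called for surgery in MRL, 12 for strain in unoperated and 12 in operated muscle (58.8, 18.7 and 13.3% of all genes). For strain in unoperated muscle library totals gave 13 (9.0% of all genes) and a fit of only the 2 groups 16 (20.8%), and for operated muscle the latter gave 2 (4.9%). Leaving out 1 library at a time gave 34 to 51 for surgery in BL6, 10 to 33 in MRL, 3 to 8 for strain in unoperated and 4 to 10 in operated muscle (61.4 to 69.8, 29.8 to 52.5, 7.01 to 13.4 and 8.8 to 15.7% of all genes), and 0 for the interaction. With library totals the median strain difference in unoperated muscle was 0.25. The cause of these differences was not tested.

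Single members reversed where they were near 0 or at few counts. Mrpl2 gave -0.0086 in BL6 without operated replicate 2 (-0.0086 to 0.16 over libraries left out). In MRL it gave 0.020 with library totals, 0.0113 without operated replicate 4, 0.0113 without both replicates 4 and 0.0068 without unoperated replicate 4 (-0.083 to 0.0113 over libraries left out). Mrpl48-ps gave -0.052 in BL6 without operated replicate 3 (-0.052 to 0.67), and Mrps11 0.047 in BL6 with library totals. Of 85 results on single members 50 kept direction and call under every alternative.

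Samples that share a replicate number did not deviate together in every pair (lowest correlation -0.474 for surgery in BL6), so the number was not taken as a pairing. With the replicate number as a block 45 members were called for surgery in BL6, 14 in MRL, 4 for strain in unoperated and 5 in operated muscle and 0 for the interaction, and Mrps27 lost its unoperated strain call (edgeR adjusted p = 0.0610). Depth limits Mrpl48-ps most, with 1 to 11 counts per BL6 sample.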
